A study of Arabidopsis thaliana with 12 samples.

Results

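Leaf transcripts of Arabidopsis thaliana were compared after 1 h in drier air and after 1 h in air close to that in which the plants had been raised. The comparison takes 8 of the 12 libraries of the series, 4 from low humidity (40 to 45% relative humidity) and 4 from moderate humidity (55 to 60%), and 17368 of the 32833 genes in the table, those that reached a TPM of 1 or more in 4 or more of the 12 libraries. All plants were wild-type Col-0, aged 3.5 to 4 weeks, grown in soil at 60% relative humidity and 22 °C under 12 h of light, and the temperature and light period were the same in every chamber. The other 4 libraries, from plants held at 95% relative humidity, enter the choice of tested genes, the scaling and the estimate of the spread, and no fold change. The labels call the samples biological replicates and do not say whether a sample is 1 plant or a pool, so p-values measure the spread between these samples. They name 1 chamber per humidity, so a chamber and its humidity cannot be told apart.

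Leaves lose water through stomatal pores, and the loss rises as the air gets drier. In the textbook account, water deficit raises abscisic acid (ABA), which receptors of the PYR/PYL family bind in order to block clade A PP2C phosphatases. SnRK2 kinases are then released to close stomata and to switch on genes of dehydration tolerance. Aquaporins carry water across membranes, cuticle waxes and cutin limit loss through the surface, and the light-harvesting antenna and the photosystems make up a large part of the messenger RNA of a green leaf.

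Values are TPM, the length-scaled share of transcripts, after median-of-ratios scaling, and are called scaled TPM. In the deposited values, which have nearly the same total in every library, the median of all log2 fold changes was -0.18, and -0.24 without low humidity replicate 1. After scaling these medians were -0.0067 and -0.0097. Each fold change is low minus moderate humidity on the log2(scaled TPM + 1) scale, on which genes at low levels appear to change less than they do. The test was limma across all tested genes with Benjamini-Hochberg adjustment and a threshold of 0.05. "Rose" and "fell" are used for genes past that threshold.

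Low humidity replicate 1 stood between the groups in several measures taken over whole libraries, so each result is given with and without it. This choice rests on the values of these same data. Adjusted p-values of the fit without low replicate 1 are therefore likely to be too small, above all for photosynthesis genes. A sum of 65 photosynthesis genes took 27.5% of deposited TPM in this library, 32.0 to 33.6% in low replicates 2 to 4, 25.6 to 26.1% at moderate humidity and 29.1 to 30.7% at high humidity. Plastid-encoded genes took 0.220% in it, 0.320 to 0.345% in the other low libraries, 0.172 to 0.210% at moderate humidity and 0.273 to 0.331% at high humidity. Genes with an exon GC content above 45% took 15.8%, 18.9 to 19.7%, 14.2 to 14.9% and 17.1 to 17.8% in the same order. In each of these sums the high humidity libraries lay above the moderate libraries and low replicate 1. A gene can count in several of these sums, and how many genes they share was not measured, so they are not taken as separate measures. The mean correlation of low replicate 1 with low replicates 2 to 4 was 0.9678 and with the moderate libraries 0.9723. Moderate replicate 1 had 0.9741 with both groups and low replicate 3 had 0.971 and 0.9698, so other libraries were also close to both groups by this measure. The sequencing depth behind the TPM values is unknown, and between 20691 and 20967 genes were above 0 per library.

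**Figure D1:**
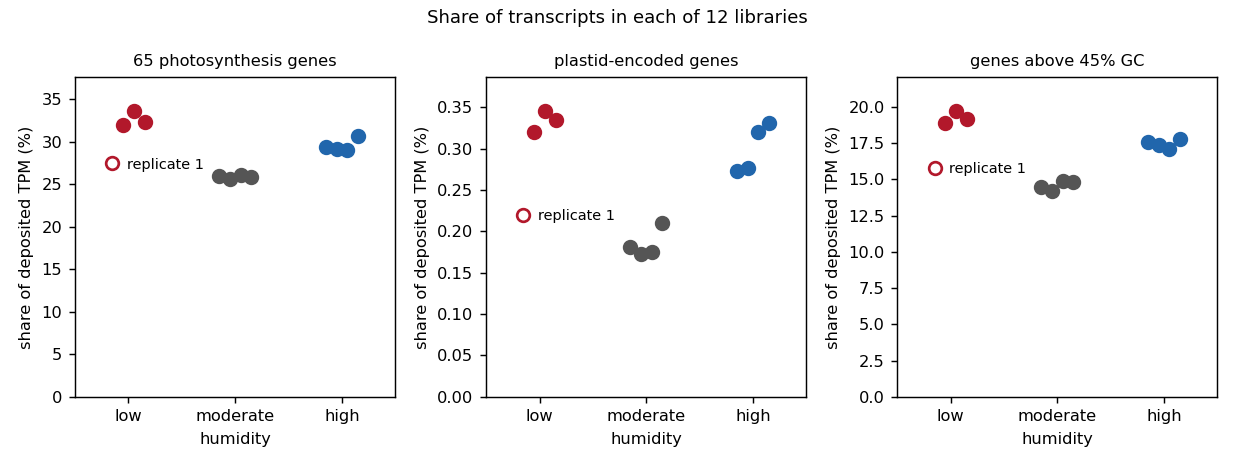
Share of deposited TPM (%) taken by 65 photosynthesis genes, by plastid-encoded genes and by genes above 45% GC, 1 point per library at low, moderate and high humidity. Low replicate 1 (open circle) lies between the other low libraries and the moderate libraries in all 3 panels, at 27.5%, 0.220% and 15.8%.

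The tissue label was checked against marker genes. The leaf mesophyll markers RBCS1A, CA1 and LHCB1.3 summed to 53969 deposited TPM in low replicate 1, 63975 to 68787 in low replicates 2 to 4 and 48245 to 49664 at moderate humidity. Of these 3 markers 2 rose without low replicate 1, and the sum is no separate measure, since RBCS1A and LHCB1.3 are photosynthesis genes themselves. The epidermis markers ATML1, PDF1 and PDF2 summed to 69.5 in low replicate 1, 53.4 to 59.2 in the other low libraries and 69.7 to 82.2 at moderate humidity, and 0 of the 3 passed the test on scaled TPM, while 2 were lower with TPM as deposited without low replicate 1. The guard cell markers KAT1, MYB60 and FAMA summed to 46.4, 27.4 to 39.2 and 43.6 to 59.5 in the same order, with 0 of 3 called on scaled TPM and 1 lower with TPM as deposited without low replicate 1. Of the phloem markers, SUC2 (log2 fold change 0.47, SE 0.10, adjusted p = 0.020) and APL (0.67, SE 0.11, adjusted p = 0.0059) rose without low replicate 1, and APL also with it (0.60, adjusted p = 0.032). The 3 phloem markers summed to 154 deposited TPM in low replicate 1, 174 to 179 in the other low libraries and 139 to 162 at moderate humidity. Of the root markers SCR alone was tested, and the sums were 26.3 to 31.2 at low and 31.8 to 44.6 at moderate humidity, with CASP1 at 0. Xylem sums reached 5.33 and flower sums 3.76. Trichome, shoot meristem and seed marker sums were at most 0.970 in every library of the comparison. The part of these marker levels in the results that follow was not tested.

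At low humidity, genes of the light-harvesting antenna and of both photosystems rose, 20 of 46 with all libraries and 37 of 46 without low replicate 1, and few genes fell. With all libraries 140 genes were higher at low humidity (0.806% of those tested) and 8 were lower (0.0461%). Without low replicate 1 these counts were 623 (3.59%) and 99 (0.570%), and all 148 genes of the first fit kept their call and direction in the second. The second fit takes the same libraries less low replicate 1, so a call in both fits is no separate observation. At least 2-fold changes were seen for 36 higher and 2 lower genes in the first fit and for 87 and 8 in the second. TPM as deposited gave 77 higher (0.443%) and 40 lower genes (0.230%) with all libraries, and 388 (2.23%) and 5217 (30.0%) without low replicate 1, so that the share of lower genes among the calls went from 5.41% to 34.2% and from 13.7% to 93.1%. In the fits without low replicate 1, 362 higher and 99 lower genes were called under both scalings. Each of the other libraries also carried weight: with all libraries less low replicate 2, 3 or 4 there were 5, 3 and 7 higher genes, and less moderate replicate 1, 2, 3 or 4 there were 47, 48, 15 and 28.

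None of the 46 antenna and nuclear photosystem genes fell in either fit on scaled TPM. Low replicates 2 to 4 all lay above every moderate library in 20 of 21 antenna, 12 of 12 photosystem I and 12 of 13 photosystem II genes, as they did in 9.77% of all tested genes. Low replicate 1 lay below these 3 libraries in all 46 and above every moderate library in 25. In bulk leaf RNA, fewer cells of a type and less RNA per cell cannot be told apart, and the same holds for more of either. After removal of the trends on exon length and GC content, 27 of the 46 rose without low replicate 1, and with TPM as deposited 29 did and 1 photosystem I gene fell. Most of the 20 calls with all libraries were lost when any library other than low replicate 1 was left out. Less low replicate 2, 3 or 4, the antenna gave 1, 0 and 1 calls and the photosystem subunits gave 0, and less 1 moderate library the antenna gave 1 to 3, photosystem I 0 to 2 and photosystem II 1. With the low and moderate libraries only, the antenna, photosystem I and photosystem II gave 1, 0 and 1 calls. Without low replicate 1 the same restriction gave 15, 9 and 10 calls, against 16, 10 and 11. Photosystem genes were among the genes that the summed library shares above are made of, so the share and these calls are not separate observations.

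Antenna proteins hold the chlorophyll that collects light, and of their 21 genes 10 rose with all libraries and 16 without low replicate 1 (median log2 fold change 0.55 and 0.65, against -0.0067 and -0.0097 over all tested genes). LHB1B2 (AT2G34420), of the major trimeric antenna of photosystem II, was at 6955, 11433, 11349 and 11305 scaled TPM in low replicates 1 to 4 and at 3547, 3122, 4288 and 4451 in moderate replicates 1 to 4. The groups did not overlap, and low replicate 1 stood between the other low libraries and the moderate ones. Its log2 fold change was 1.40 (SE 0.17, adjusted p = 0.0094) with all libraries and 1.58 (SE 0.11, adjusted p = 3.3e-05) without low replicate 1.

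LHCB1.3 (AT1G29930), the most abundant gene of that antenna here, was at 23039, 34624, 37371 and 37953 scaled TPM at low and at 17493, 16214, 17161 and 17064 at moderate humidity. Its log2 fold change was 0.94 (SE 0.14, adjusted p = 0.015), and 1.11 (SE 0.07, adjusted p = 3.0e-05) without low replicate 1. LHB1B1, LHCB1.1, LHCB1.2, LHCB2.1 and LHCB2.2, of the same trimers, rose in both fits, by 0.83 to 1.49 without low replicate 1. Reads of such close copies can be shared between them, and the sources used here do not give how they were assigned, which makes the value of any single member uncertain.

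LHCB6 (AT1G15820), a minor antenna protein that joins trimers to the core, was at 2798, 4843, 4860 and 4968 scaled TPM at low and at 1961, 1918, 2133 and 2172 at moderate humidity. Its log2 fold changes were 1.06 (SE 0.17, adjusted p = 0.019) and, without low replicate 1, 1.26 (SE 0.09, adjusted p = 3.3e-05). LHCB4.1 and LHCB4.2, which form another minor antenna protein, rose in both fits (0.95 and 0.65 without low replicate 1). Of the photosystem I antenna, LHCA2 passed the threshold only without low replicate 1 (0.87, SE 0.06, adjusted p = 3.3e-05; 0.051 with all libraries), as did LHCA1 (0.52, adjusted p = 0.0018) and LHCA5 (0.36, adjusted p = 0.016).

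Not all antenna genes passed. LHCB7, a rare antenna protein, was the 1 member with a fold change below 0, at 22.9, 33.8, 30.7 and 37.3 scaled TPM at low and at 40.2, 22.6, 43.3 and 44.1 at moderate humidity (-0.23, adjusted p = 0.653; -0.10, adjusted p = 0.830). LHCB3 had log2 fold changes of 0.21 (adjusted p = 0.399) and 0.29 (adjusted p = 0.077) in the fits with and without low replicate 1, and LHCB5 of 0.07 (adjusted p = 0.743) and 0.13 (adjusted p = 0.281). LHCB5, which lies at 6878 to 7892 scaled TPM at moderate humidity, turned to -0.12 and -0.13 with TPM as deposited. PSBS, the protein that triggers the shedding of excess light as heat, had 0.18 (adjusted p = 0.562) and 0.30 (adjusted p = 0.096), and -0.02 with all libraries and TPM as deposited.

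**Figure D2:**
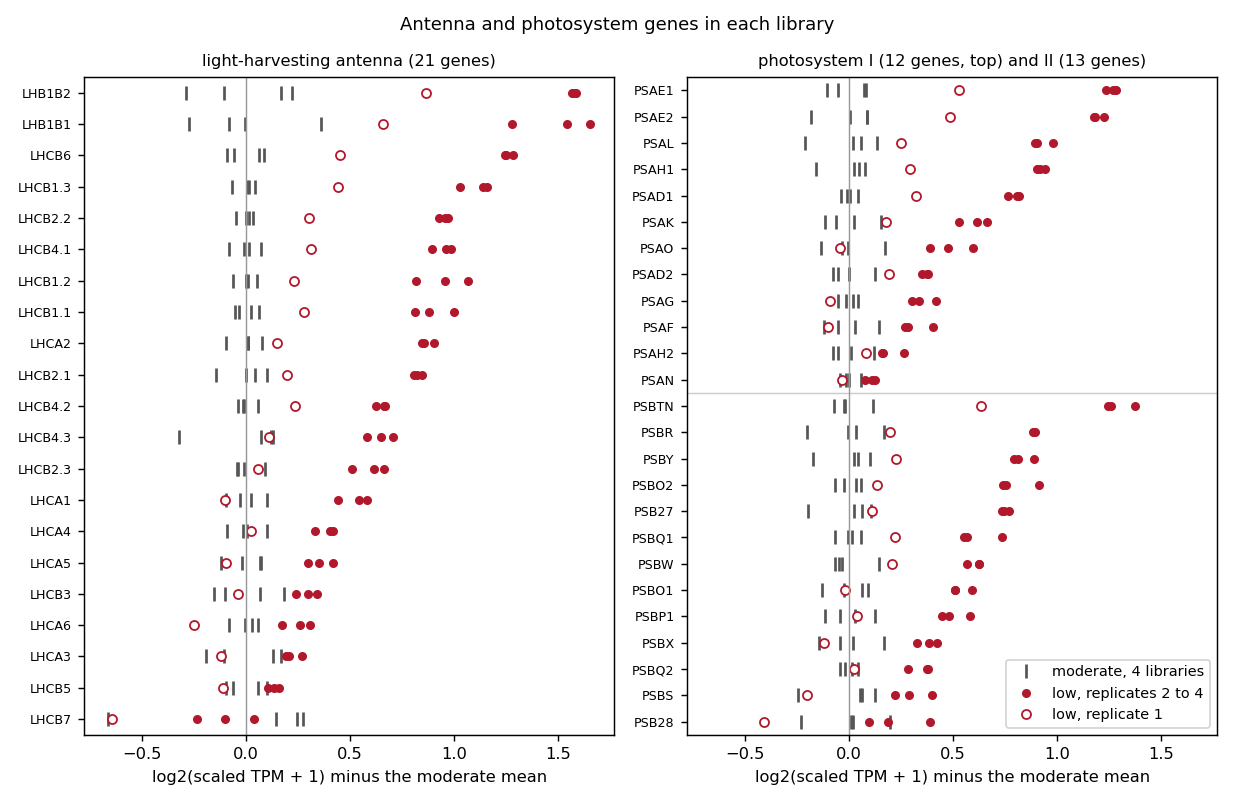
Each of 21 antenna and 25 photosystem genes in each library, as log2(scaled TPM + 1) minus the mean of the 4 moderate libraries, with moderate libraries as grey bars, low replicates 2 to 4 as filled circles and low replicate 1 as an open circle. Low replicate 1 lies below low replicates 2 to 4 in all 46 genes and above every moderate library in 25.

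Photosystem I passes electrons from plastocyanin to ferredoxin, and of its 12 nuclear subunit genes 5 rose with all libraries and 10 without low replicate 1 (median 0.43 and 0.54). PSAE1 (AT4G28750), a subunit at the site where ferredoxin docks, was at 3779, 6171, 6371 and 6323 scaled TPM at low and at 2527, 2436, 2755 and 2773 at moderate humidity. The log2 fold change was 1.08 (SE 0.16, adjusted p = 0.014), and 1.26 without low replicate 1 (SE 0.08, adjusted p = 3.3e-05). Its paralog PSAE2 rose by 1.02 and 1.19, PSAH1 and PSAL, which lie where mobile antenna binds, by 0.77 and 0.92 and by 0.76 and 0.93, and PSAD1 by 0.68 and 0.80.

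Photosystem II splits water, and of its 13 nuclear genes 5 rose with all libraries and 11 without low replicate 1 (median 0.51 and 0.61). PSBTN (AT3G21055), a small subunit, was at 3210, 4937, 5362 and 4894 scaled TPM at low and at 2037, 1962, 2033 and 2233 at moderate humidity, which gave 1.13 (SE 0.15, adjusted p = 0.011) and 1.29 (SE 0.09, adjusted p = 3.3e-05). The groups of this gene did not overlap. PSBR rose by 0.72 and 0.89 and PSBY by 0.68 and 0.83 in the 2 fits. PSBO2, of the water-splitting complex, rose only without low replicate 1 (0.80, SE 0.07, adjusted p = 1.2e-04; 0.060 with all libraries).

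Further along the photosynthetic chain the counts were smaller and rested more on the choice of libraries. Of 12 nuclear genes of electron transport and ATP synthase, 0 rose with all libraries and 5 without low replicate 1, against 0.806% and 3.59% of all tested genes. With TPM as deposited, 4 rose and 3 fell without low replicate 1. PETE2, the main plastocyanin, was at 2763, 4693, 4856 and 4749 scaled TPM at low and at 3043, 2591, 2758 and 3180 at moderate humidity, so that low replicate 1 lay within the moderate range (0.53, adjusted p = 0.165; 0.72, SE 0.07, adjusted p = 2.7e-04 without it). FD1, a ferredoxin, gave 0.67 (adjusted p = 0.062) and 0.83 (adjusted p = 0.0013).

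Of 19 genes of Rubisco and the Calvin cycle, which fixes carbon dioxide, 1 rose with all libraries and 8 without low replicate 1. The shares over all tested genes were 0.806% and 3.59%. After removal of the length and GC trend 3 of the 19 passed without low replicate 1. With TPM as deposited 4 rose and 3 fell without low replicate 1, and leaving out low replicate 2, 3 or 4 as well gave 4, 5 and 5 rises on scaled TPM. The 1 with all libraries was CP12-1, a small regulator of the cycle, with 0.68 (SE 0.10, adjusted p = 0.015) and 0.78 (SE 0.07, adjusted p = 1.4e-04). RBCS3B and RBCS1A, small subunits of Rubisco, gave 0.76 (adjusted p = 8.1e-04) and 0.42 (adjusted p = 0.0064) without low replicate 1, and 0.58 (adjusted p = 0.136) and 0.30 (adjusted p = 0.292) with it. FBA2, a plastid aldolase, gave 0.77 (adjusted p = 7.4e-04) and 0.61 (adjusted p = 0.081). Of 14 chlorophyll synthesis genes 0 and 2 rose, the latter being CHLM (0.40, adjusted p = 0.0083) and GUN4 (0.35, adjusted p = 0.017), which act in the magnesium branch.

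Among 10 genes of protein import into plastids, TIC20-II (AT2G47840), a relative of the inner envelope channel TIC20-I, rose in both fits. It was at 12.0, 35.0, 32.4 and 29.4 scaled TPM at low and at 8.90, 3.46, 11.1 and 7.12 at moderate humidity, with log2 fold changes of 1.69 (SE 0.34, adjusted p = 0.049) and 2.03 (SE 0.26, adjusted p = 0.0017). The other members did not pass, and the list's median was 0.03 and 0.05.

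Of the 2 fits, aquaporins passed the test only in that without low replicate 1, with the tonoplast members TIP1;2 and TIP1;1 at the smallest adjusted p. Of 22 genes 0 rose with all libraries (adjusted p at or above 0.052) and 7 without low replicate 1 (against 3.59% of all tested genes), with medians of 0.40 and 0.55. An unadjusted p under 0.05 was reached by 11 of them in the first fit and 16 in the second, against 13.8% and 19.7% of all tested genes. The count of 7 became 1 with the low and moderate libraries only, 1 and 2 when low replicate 2 or 3 was left out as well, 4 and 3 without moderate replicate 2 or 4, and 10 without moderate replicate 1. TIP1;2 (AT3G26520), a tonoplast channel, was at 705, 1275, 1175 and 1326 scaled TPM at low and at 686, 535, 691 and 506 at moderate humidity. Low replicate 1 was just above the highest moderate library, and the other 3 low libraries were well above it. The log2 fold change was 0.86 (SE 0.18, adjusted p = 0.052) with all libraries and 1.07 (SE 0.11, adjusted p = 3.8e-04) without low replicate 1.

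TIP1;1 (1.01, adjusted p = 0.014), TIP2;1 (0.66, adjusted p = 0.021) and TIP2;2 (1.17, adjusted p = 0.034), also of the tonoplast, passed in the fit without low replicate 1. So did the plasma membrane channels PIP1;3 (0.66, adjusted p = 0.038) and PIP1;4 (0.54, adjusted p = 0.017) and the boric acid channel NIP6;1 (0.63, adjusted p = 0.048). TIP2;2 was at 399, 700, 526 and 375 scaled TPM at low and at 287, 211, 307 and 151 at moderate humidity, a case in which low replicate 1 resembled low replicate 4. PIP2;1, the most abundant aquaporin in this list, had 0.25 (adjusted p = 0.436) and 0.35 (adjusted p = 0.149). After removal of the length and GC trend, 2 of the 22 aquaporins rose without low replicate 1, and TIP1;2 was one of them (0.80, adjusted p = 0.0014).

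**Figure D3:**
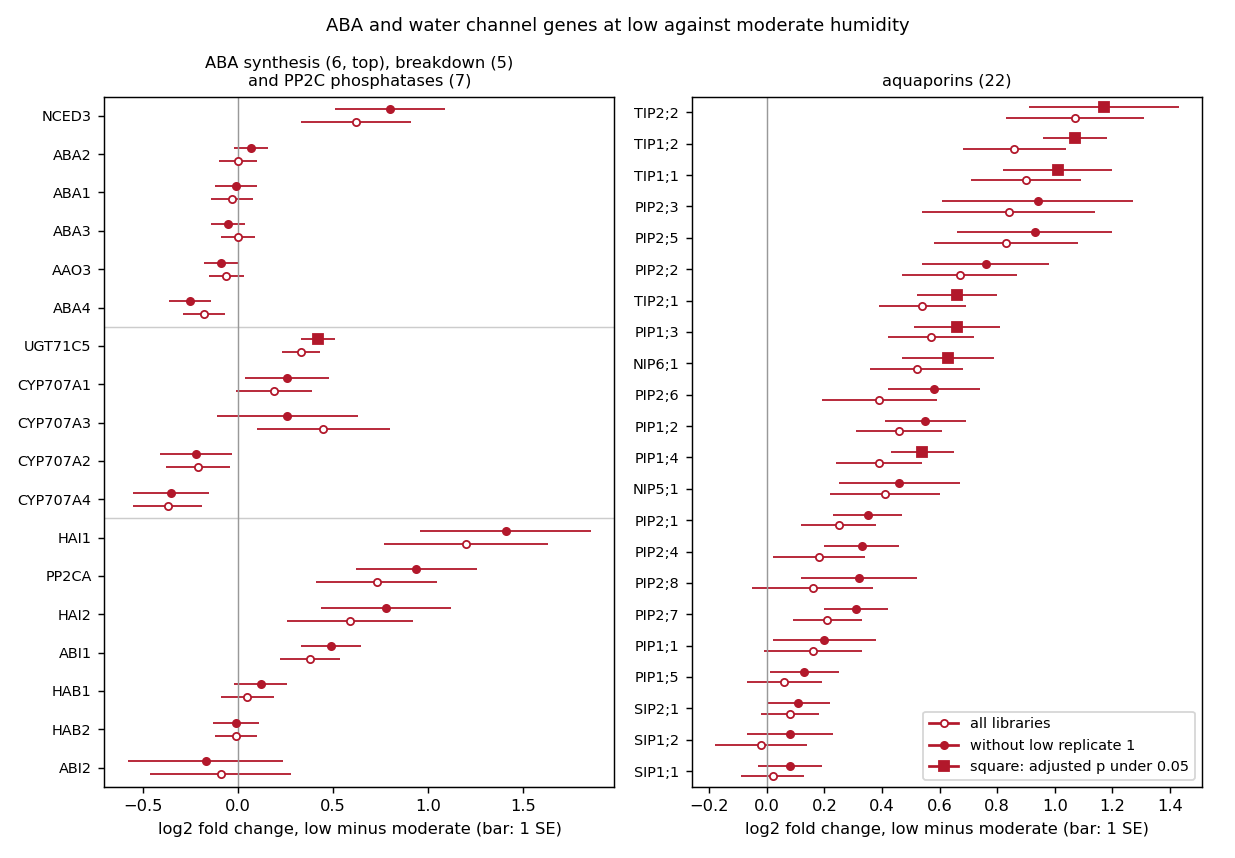
Log2 fold change, low minus moderate humidity, with 1 SE, for genes of ABA synthesis, ABA breakdown and clade A PP2C phosphatases (left) and for aquaporins (right), with all libraries (open) and without low replicate 1 (filled), and with squares for an adjusted p under 0.05. UGT71C5 and 7 aquaporins pass, all in the fit without low replicate 1.

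Genes that make ABA did not pass the test on scaled TPM in either fit. NCED3 (AT3G14440), the enzyme that limits ABA synthesis under water deficit, was at 2.14, 6.87, 2.72 and 3.58 scaled TPM at low and at 2.45, 0.859, 2.76 and 2.12 at moderate humidity. The groups overlapped, with 1 low library far above the rest, and the log2 fold changes were 0.62 (SE 0.29, adjusted p = 0.364) and 0.80 (SE 0.29, adjusted p = 0.162). ABA1, the zeaxanthin epoxidase, had -0.03 and -0.01, ABA2, a dehydrogenase, 0.00 and 0.07, ABA3, the cofactor enzyme, 0.00 and -0.05, AAO3, the aldehyde oxidase of the last step, -0.06 and -0.09, and ABA4, of neoxanthin synthesis, -0.18 and -0.25 (adjusted p at or above 0.231 for all 5). The signs of these 5 turned under some settings, except that of ABA4, so no direction is read from them. Of the 10 listed genes 6 were tested, and of these 0 and 2 had an unadjusted p under 0.05, against 13.8% and 19.7% of all tested genes. With TPM as deposited and without low replicate 1, 2 of the 6 were lower, against 30.0% of all tested genes.

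Of the hydroxylases that break ABA down, CYP707A3 was at 6.17, 5.32, 3.37 and 1.74 scaled TPM at low and at 3.26, 3.83, 2.41 and 1.19 at moderate humidity (0.45, adjusted p = 0.603; 0.26, adjusted p = 0.738). CYP707A1 had 0.19 and 0.26, CYP707A2 -0.21 and -0.22 and CYP707A4 -0.37 and -0.35, at 0.344 to 1.86 scaled TPM in the 8 libraries and none past the test. UGT71C5, which couples ABA to glucose, was at 7.57, 11.2, 9.79 and 9.57 at low and at 6.86, 7.33, 7.70 and 7.44 at moderate humidity. It rose without low replicate 1 (0.42, SE 0.09, adjusted p = 0.021) and not with it (0.33, adjusted p = 0.192), nor after removal of the length and GC trend (0.22, adjusted p = 0.297).

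Of 9 tested ABA receptor genes, 7 PP2C genes and 11 genes of SnRK2 kinases and ABF factors, 0 passed on scaled TPM in either fit. An unadjusted p under 0.05 was reached by 2, 3 and 0 of them with all libraries and by 1, 4 and 0 without low replicate 1. The shares over all tested genes were 13.8% and 19.7%. With TPM as deposited and without low replicate 1, 1 receptor gene, 0 PP2C genes and 2 SnRK2 or ABF genes were lower, against 30.0% of all tested genes. With low replicates 1 and 3 both left out 2 PP2C genes were higher, and with low replicate 1 and moderate replicate 1 left out 1 was. PYL2 had the smallest p of the receptors with all libraries (0.39, adjusted p = 0.317), and PYL9 had 0.30 (adjusted p = 0.242) without low replicate 1. OST1, the kinase that closes stomata, had -0.06 and -0.10. The PP2C genes, which ABA induces, spread widely within the low group. HAI1 (AT5G59220) was at 5.38, 16.4, 5.07 and 13.5 scaled TPM at low and at 7.60, 2.90, 3.85 and 1.18 at moderate humidity (adjusted p = 0.246 with all libraries; 1.41, SE 0.45, adjusted p = 0.119 without low replicate 1). PP2CA was at 62.5, 152, 65.6 and 144 against 90.4, 49.7, 61.2 and 41.8 (0.73, adjusted p = 0.343; 0.94, adjusted p = 0.139). In both genes low replicates 2 and 4 were high, low replicates 1 and 3 were in the moderate range, and moderate replicate 1 was the highest of its group.

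Among 23 ABA-responsive genes 2 rose with all libraries and 3 without low replicate 1 (median 0.50 and 0.71), against 0.806% and 3.59% of all tested genes. With the low and moderate libraries only these counts were 0 and 1. The first was 0 without low replicate 2, 3 or 4 or moderate replicate 3 or 4, and 1 without moderate replicate 1 or 2. The second was 1 without low replicate 2 or 4 or moderate replicate 3, 2 without moderate replicate 2 or 4, and 5 without low replicate 3. RAB18 (AT5G66400), a dehydrin, was at 45.6, 70.7, 56.8 and 63.6 scaled TPM at low and at 39.0, 31.1, 33.3 and 22.1 at moderate humidity, without overlap (0.90, SE 0.16, adjusted p = 0.030; 1.02, SE 0.16, adjusted p = 0.0042). MYB102 (AT4G21440), a transcription factor, was at 7.61, 8.39, 6.67 and 8.12 against 4.79, 5.08, 3.96 and 3.20, and here low replicate 1 was like the other low libraries (0.74, SE 0.13, adjusted p = 0.031; 0.74, SE 0.15, adjusted p = 0.020). COR15B, which protects chloroplast membranes in cold, rose only without low replicate 1 (1.27, SE 0.31, adjusted p = 0.046; 0.350 with all libraries).

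Other ABA-responsive genes spread widely within both groups. RD29A (AT5G52310), a classic marker of dehydration, was at 124, 389, 92.0 and 250 scaled TPM at low and at 320, 51.8, 129 and 47.7 at moderate humidity (0.85, SE 0.83, adjusted p = 0.697; 1.04, SE 0.94, adjusted p = 0.580). COR15A was at 151, 724, 350 and 711 against 509, 101, 286 and 221, KIN2 at 285, 782, 378 and 765 against 419, 153, 283 and 218, and RD20 at 293, 796, 281 and 1081 against 624, 207, 357 and 197. None of these passed in either fit. On the list of cold and dehydration genes, P5CS1, of proline synthesis, had 0.29 (adjusted p = 0.548) and 0.30 (adjusted p = 0.487).

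This order of libraries ran through whole lists. Low replicates 2 and 4 both lay above low replicates 1 and 3 in 18 of 23 ABA-responsive genes, 6 of 7 PP2C genes, 8 of 15 cold and dehydration genes and 17 of 18 jasmonate genes, against 18.4% of all tested genes. Moderate replicate 1 was the highest moderate library in 18, 6, 10 and 16 of them, against 25.2% of all tested genes. The median ABA-responsive gene was 1.01 and 0.83 above the moderate mean on the log2 scale in low replicates 2 and 4, -0.00 and -0.13 in low replicates 1 and 3, and 0.72 in moderate replicate 1. These counts were chosen after the values were seen and carry no test. The order differs from that of the antenna and photosystem genes, in which low replicates 2 to 4 were alike and low replicate 1 stood apart.

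Jasmonate, a hormone of wounding, spread most among libraries. Of 18 tested genes 0 passed in either fit, with 1 at an unadjusted p under 0.05 in each, against 13.8% and 19.7% of all tested genes. Low replicate 4 was the highest of all 8 libraries in 16, against 13.8% of all tested genes. OPR3 (AT2G06050), an enzyme of jasmonate synthesis, was at 13.4, 92.5, 15.9 and 718 scaled TPM at low and at 146, 19.8, 65.9 and 47.1 at moderate humidity (0.18, SE 1.17, adjusted p = 0.959; 0.90, SE 1.17, adjusted p = 0.714). Without low replicate 4 its log2 fold change was -0.98, or -0.49 with low replicate 1 left out as well. JAZ7, a repressor of the jasmonate response, was at 0, 0.367, 0.0990 and 11.1 at low and at 9.15, 5.13, 9.43 and 6.11 at moderate humidity. Its low value in 3 of 4 low libraries did not pass the test (adjusted p = 0.343 with all libraries; -1.65, SE 0.95, adjusted p = 0.374 without low replicate 1).

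**Figure D4:**
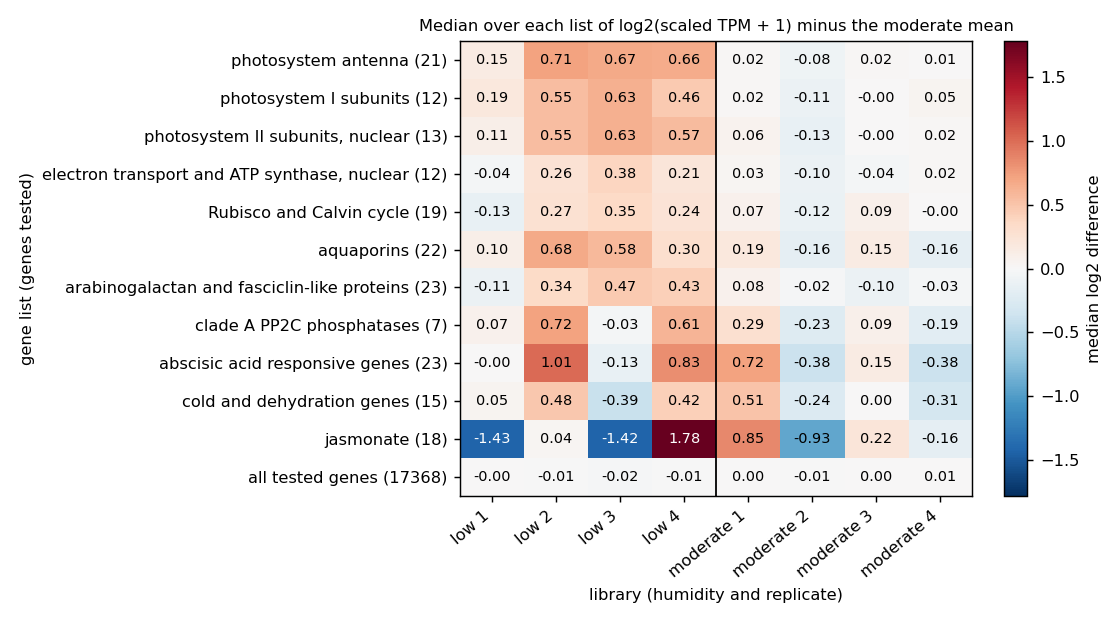
Median over the tested genes of each list of log2(scaled TPM + 1) minus the mean of the 4 moderate libraries, for each low and moderate library, with the number of genes tested beside the list. Photosystem lists are high in low replicates 2 to 4, while the ABA-responsive list is high in low replicates 2 and 4 and in moderate replicate 1 (1.01, 0.83 and 0.72), and the jasmonate list runs from -1.43 in low replicate 1 to 1.78 in low replicate 4.

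Genes of the leaf surface gave a few rises. Of 23 genes of cuticle wax and cutin, 1 rose with all libraries and 3 without low replicate 1, against 0.806% and 3.59% of all tested genes. The count of 1 became 0 with TPM as deposited and with the low and moderate libraries only. It was also 0 when any library other than low replicate 1 was left out. The count of 3 stayed at 2 or 3 in these settings, and with TPM as deposited 2 genes were lower. LTPG1 (AT1G27950), an anchored lipid transfer protein of wax export, was at 319, 463, 437 and 422 scaled TPM at low and at 294, 216, 298 and 227 at moderate humidity (0.66, SE 0.14, adjusted p = 0.049; 0.78, SE 0.12, adjusted p = 0.0044). Its relative LTPG2 (0.86, adjusted p = 0.0045) and ATT1, a cytochrome P450 of cutin synthesis (0.88, adjusted p = 0.0095), rose without low replicate 1. Of 3 lipid transfer protein genes LTP5 and LTP1 rose in both fits. LTP5 (AT3G51600) was at 232, 368, 358 and 286 against 139, 151, 152 and 142, with all 4 low libraries above all moderate ones (1.06, SE 0.14, adjusted p = 0.011; 1.19, SE 0.11, adjusted p = 1.8e-04). LTP1 gave 0.63 (adjusted p = 0.048) and 0.76 (adjusted p = 0.0016).

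Wall genes rose in small numbers, to be set against 0.806% of all tested genes with all libraries and 3.59% without low replicate 1. Of 26 XTH and expansin genes the expansins EXPA5 (0.58, adjusted p = 0.049; 0.67, adjusted p = 0.0084) and EXPA4 (0.54, adjusted p = 0.048; 0.55, adjusted p = 0.031) rose in both fits. The list's median was 0.04 in both. The 2 calls with all libraries became 0 with TPM as deposited and with the low and moderate libraries only. They also became 0 after removal of the length and GC trend. Without moderate replicate 1 there was 1, and without any library other than it and low replicate 1 there were 0. EXPA4 was at 39.4, 45.0, 39.5 and 37.8 scaled TPM at low and at 33.8, 25.6, 24.0 and 27.4 at moderate humidity, so that low replicate 1 was like the others. Of 23 genes of arabinogalactan and fasciclin-like proteins, heavily glycosylated proteins of the wall, AGP4 rose in both fits. AGP4 (AT5G10430) was at 5.44, 8.93, 9.24 and 11.5 against 2.14 to 3.48 in the moderate libraries (1.38, SE 0.18, adjusted p = 0.011; 1.56, SE 0.14, adjusted p = 1.2e-04). AGP5 (1.52, adjusted p = 0.035) and AGP9 (0.57, adjusted p = 0.022) rose without low replicate 1.

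Guard cell and stomatal genes gave no call on scaled TPM in the fits with and without low replicate 1. Of 20 genes of guard cell channels and regulators and of 8 genes of stomatal development, 0 passed in either fit, with 3 guard cell and 3 stomatal development genes at an unadjusted p under 0.05 without low replicate 1, and 3 and 2 with all libraries. The shares over all tested genes were 19.7% and 13.8%. With TPM as deposited, under which 30.0% of all tested genes were lower without low replicate 1, 5 of the 20 and 5 of the 8 were lower. With low replicates 1 and 3 both left out, 1 of the 20 was higher on scaled TPM. ALMT12, an anion channel of stomatal closure, was at 6.13, 7.71, 7.47 and 6.84 scaled TPM at low and at 5.22, 5.42, 4.13 and 3.04 at moderate humidity. These groups did not overlap, as in 6.29% of all tested genes, and the log2 fold change was 0.58 (adjusted p = 0.131), or 0.64 (adjusted p = 0.070) without low replicate 1. PHOT2, a blue light receptor, had -0.24 (adjusted p = 0.293) and -0.27 (adjusted p = 0.176).

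Other hormone, light and stress lists held few calls. Of all tested genes, 0.806% rose and 0.0461% fell with all libraries, and 3.59% and 0.570% without low replicate 1. Of 9 heat shock genes HSFA7A, a heat shock factor, fell without low replicate 1 (-0.98, SE 0.21, adjusted p = 0.023; 0.117 with all libraries). Of 12 touch and calcium genes, 9 genes of the unfolded protein response, 15 cold and dehydration genes, 12 morning and 6 day and evening clock genes, 8 cytokinin response regulators, 8 sugar and starch genes and 6 SPL genes, 0 passed in either fit. Of these 76 genes, 9 had an unadjusted p under 0.05 without low replicate 1 (11.8%, against 19.7% of all tested genes) and 3 with all libraries (3.95%, against 13.8%). With TPM as deposited and without low replicate 1, 9 of the 12 morning clock genes were lower, against the 30.0% of all tested genes. ERF8 (AT1G53170), a repressor of the ethylene response factor family, was at 16.0 to 32.4 scaled TPM in the 4 low libraries and at 5.21 to 9.28 in the moderate ones (1.36, SE 0.22, adjusted p = 0.023; 1.43, SE 0.25, adjusted p = 0.0091). GA3OX1, of gibberellin synthesis, rose by 1.07 (adjusted p = 0.043) and 1.15 (adjusted p = 0.019), and IAA7, an auxin repressor, by 0.54 (adjusted p = 0.049) and 0.64 (adjusted p = 0.0025). PR5, a defence protein of the salicylic acid response (1.13, adjusted p = 0.012), CHS, the first enzyme of flavonoid synthesis (0.73, adjusted p = 0.019), ELIP1, an early light-induced protein (0.67, adjusted p = 0.034), and 2CPB, a plastid peroxiredoxin (0.41, adjusted p = 0.026), rose only without low replicate 1.

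Outside the lists, the largest rises included a gene of the cell surface and a nitrogen transporter. CWLP (AT3G22120), whose protein is named for linking the wall to the plasma membrane, was at 45.8, 89.8, 129 and 96.0 scaled TPM at low and at 33.1, 25.4, 16.1 and 22.6 at moderate humidity (1.80, SE 0.29, adjusted p = 0.023; 2.09, SE 0.22, adjusted p = 4.3e-04). AMT1;1 (AT4G13510), an ammonium transporter, was at 15.4, 28.1, 18.7 and 27.4 against 8.82, 10.6, 3.57 and 6.43 (1.53, SE 0.31, adjusted p = 0.050; 1.69, SE 0.33, adjusted p = 0.018). Neither gene's groups overlapped. RHA3A, a RING-H2 finger protein (1.37, adjusted p = 0.023; 1.47, adjusted p = 0.0074), and AT3G62950, of the thioredoxin superfamily (1.33, adjusted p = 0.0094; 1.41, adjusted p = 8.3e-04), also rose in both fits.

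Few genes fell. The 8 that fell with all libraries were AT4G36808, AT2G45245, AT1G72800, AT2G33735, CF9, pde194, DHAR2 and CRF11, with log2 fold changes from -0.34 to -2.17. AT1G72800, an RNA-binding protein gene, was at 5.92, 6.11, 6.67 and 5.95 scaled TPM at low and at 10.1, 10.2, 13.1 and 10.5 at moderate humidity, with low replicate 1 among the others (-0.73, SE 0.11, adjusted p = 0.015; -0.72, SE 0.12, adjusted p = 0.0090). DHAR2, a dehydroascorbate reductase, was at 10.9, 11.1, 12.1 and 10.5 against 15.4, 13.5, 16.4 and 14.7 (-0.40, SE 0.08, adjusted p = 0.043; -0.39, SE 0.09, adjusted p = 0.031). CRF11, a cytokinin response factor, was at 6.70, 6.35, 6.34 and 6.63 against 8.42, 8.95, 8.08 and 8.50 (-0.34, SE 0.07, adjusted p = 0.046; -0.35, SE 0.07, adjusted p = 0.023). In the falls of these 3 genes low replicate 1 did not stand apart.

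Without low replicate 1 the falls also held SD2-5, a receptor kinase (-1.03, adjusted p = 0.034), LINC4, of the nuclear lamina (-0.95, adjusted p = 0.018), CUL3, a scaffold of ubiquitin ligases (-0.86, adjusted p = 0.010), AT5G35480 (-0.86, adjusted p = 0.011) and AT1G32630 (-0.75, adjusted p = 0.038). CUL3 was at 21.9, 14.4, 10.5 and 9.24 scaled TPM at low and at 16.6, 21.6, 21.5 and 25.7 at moderate humidity, with low replicate 1 inside the moderate range.

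Many of the largest changes were in non-coding genes that lie opposite another gene. Without low replicate 1, 13 of 618 tested non-coding genes were higher (2.1%, against 3.59% of all tested genes) and 10 lower (1.62%, against 0.570%), and 22 of these 23 overlap a gene on the opposite strand in the reference annotation (95.7%, against 81.2% of the tested non-coding genes). Non-coding genes make up 6 of the 12 largest rises and 6 of the 12 largest falls named by the rule in that fit. Among all tested genes, 618 of 17368 are non-coding. AT4G36808 was at 8.51, 5.72, 3.88 and 3.72 scaled TPM at low and at 18.9, 22.1, 27.0 and 45.3 at moderate humidity, without overlap (-2.17, SE 0.33, adjusted p = 0.017; -2.37, SE 0.33, adjusted p = 0.0027). AT3G04685, opposite the coactivator gene MBF1C, was at 12.3, 34.0, 22.1 and 22.6 at low humidity and was listed at 0 in 3 moderate libraries and at 0.404 in the other (adjusted p = 0.042; 0.020 without low replicate 1). Only libraries outside the moderate group brought AT3G04685 to the TPM of 1 needed for testing, so its adjusted p-values carry little weight. The sources used here do not say whether counting used the strand, so reads of such a gene and its partner may not be told apart and these values are uncertain.

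AT3G09905, opposite AT3G63140, was at 692, 276, 328 and 165 scaled TPM at low and at 762, 804, 680 and 738 at moderate humidity, and fell only without low replicate 1 (-1.59, SE 0.28, adjusted p = 0.0099; 0.174 with all libraries). AT4G07275 was at 21.2, 12.7, 1.05 and 0 against 26.4, 26.6, 26.8 and 21.4 (-3.11, SE 0.70, adjusted p = 0.037; 0.236 with all libraries). The near-identical ribosomal protein genes AT1G58684 and AT1G59359 have the same values in the table. They were listed at 0 in all moderate libraries and in low replicate 1, and at 93.2, 40.5 and 47.2 in low replicates 2 to 4, so no fold is given for them.

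Organelle-encoded genes gave calls in both fits. Plastid-encoded genes together took 0.172 to 0.345% of deposited TPM in the low and moderate libraries. Whether such small shares follow expression in the organelles was not tested. Of 54 tested plastid-encoded genes 4 rose with all libraries and 6 without low replicate 1 (median 0.16 and 0.20), against 0.806% and 3.59% of all tested genes. With the low and moderate libraries only, 0 rose and 1 fell, and without low replicate 1 the same restriction gave 5 and 1. The 4 that rose with all libraries are 2 pairs with identical values, ATCG00950 with ATCG01180 and ATCG00920 with ATCG01210, copies that the counting did not separate. The table pairs these 4 IDs, and the 2 mitochondrial ones that rose, with no name, so no function is given for them. ATCG00950 was at 164, 373, 394 and 400 scaled TPM at low and at 134, 101, 126 and 132 at moderate humidity (1.35, SE 0.24, adjusted p = 0.030; 1.66, SE 0.10, adjusted p = 3.0e-05). Without low replicate 1, psbC, a core antenna protein of photosystem II (0.67, SE 0.13, adjusted p = 0.017), and rbcL, the large subunit of Rubisco (0.60, SE 0.15, adjusted p = 0.046), rose as well. They were at 16.7 to 23.3 and 10.8 to 14.2 scaled TPM at moderate humidity. Of 14 mitochondrion-encoded genes ATMG01390 (adjusted p = 0.027 with all libraries; 1.46, adjusted p = 3.0e-05 without low replicate 1) and ATMG00020 (0.92, adjusted p = 0.049; 1.14, adjusted p = 6.8e-04) rose in both fits.

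The genes that rose differed from the rest in length, GC content and level. The 623 genes higher without low replicate 1 had a median exon length of 1235 bases, against 1898 for the 99 lower genes and 1771 for all tested genes, and a median GC content of 43.7%, 39.8% and 41.2%. The tested genes were cut into 5 equal classes by each property. In the class with the most GC 10.1% were higher, and in the class with the least 1.27%. The class with the shortest exons had 7.02% higher genes and that with the longest 0.550%. The class with the highest level had 9.15% and that with the lowest 0.921%. After removal of the length and GC trend, 76 genes were higher (0.438%) and 6 lower (0.0345%) with all libraries, and 236 (1.36%) and 50 (0.288%) without low replicate 1. Antenna and photosystem genes that rose have a median GC content of 43.8%, so the trend and these genes share their direction, and the part of length and GC in the calls was not tested beyond these fits.

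**Figure D5:**
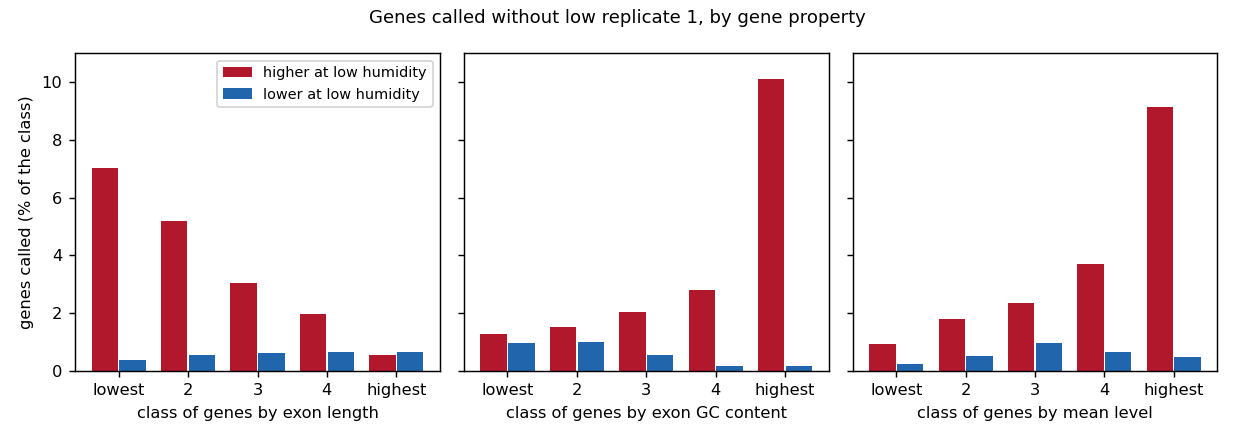
Share of genes called higher or lower at low humidity (% of each class) without low replicate 1, in 5 equal classes of the tested genes by exon length, exon GC content and mean level. The share of higher genes falls from 7.02% to 0.550% with length and rises from 1.27% to 10.1% with GC content and from 0.921% to 9.15% with level.

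Low replicate 1, which took no part in the second fit, lay above the moderate mean in 74.3% of the 623 higher genes, against 49.7% of all tested genes, and above every moderate library in 46.7%, against 19.3%. It lay within the moderate range in 295 of them and below every moderate library in 5.94%. Among the 99 lower genes it was below every moderate library in 50.5%, against 17.9% of all tested genes. The moderate libraries helped to choose these genes, so the shares describe where this library lies and are no test. The median over the higher genes of its distance from the moderate mean was 0.15 on the log2 scale, and the median fold change of these genes in the fit without it was 0.61.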

How the data were processed

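Leaf RNA of 12 samples (4 per humidity) was sequenced as 150 bp paired-end reads from TruSeq libraries made from 1 µg of RNA, per the labels' protocols. The submitters' processing notes name fastp, HISAT2, RSEM and the TAIR10 genome, with no versions. Although the table's title speaks of raw counts, the deposited values are TPM: they have decimals and add up to 998920 to 999399 per library. A count test was therefore not used, depth is unknown and no counting interval is given. Whether strand was used, and how reads of near-identical copies were divided, is not given in the sources used here. Another 3 columns hold group means and were not used.

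Of 32833 genes, 17368 that reached a TPM of 1 or more in 4 or more of 12 libraries were tested. TPM was divided by median-of-ratios size factors from 16926 genes above 0 in every library (0.909 to 0.927 in low replicates 2 to 4, 1.111 in low replicate 1, 1.064 to 1.164 at moderate humidity). At high humidity the size factors were 0.931 to 0.948. limma 3.58.1 (R 4.3.3) was fitted to log2(scaled TPM + 1) with a mean per humidity, a variance trend and robust moderation, over all 12 libraries, and again without low replicate 1, with Benjamini-Hochberg adjustment over all tested genes. The scripts were tested on simulated data. In an alternative, each library's deviations from the gene means over all 12 libraries were fitted on exon length and GC content with mgcv 1.9.3. The fitted trend was subtracted before the test. Lengths, GC content and overlaps came from the TAIR10.1 annotation, which holds 17300 of the tested genes, and the other genes were left uncorrected. Other alternatives were TPM as deposited, another scaling, pseudocount, filter or variance model, a replicate block, and leaving out each library.

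The members, the 36 gene lists (538 genes, of which 468 were tested) and the marker lists were chosen with earlier results of these data known. Genes are named by rule: up to 12 rises and 12 falls per fit among called genes whose groups did not overlap and whose log2 values averaged 1 or more, up to 6 genes per list by adjusted p without low replicate 1, and all genes of ABA synthesis and breakdown. The other antenna genes that are named, and OST1, RD29A, RD20, NIP6;1, PIP2;1, SUC2, APL, AT1G21500 and the organelle genes outside the rule, were added once values had been seen. Figures were drawn with matplotlib 3.10.9.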

Additional observations from a re-analysis of the deposited data

Results flagged for a closer look

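Of 272 groups of 4 libraries looked at, 31 held 1 library whose distance to the nearest other, as a share of the group's range, exceeded the critical value of Dixon's test, and 20 of these were low replicate 1. For groups not chosen by their values, chance gives about 1 in 20. Many of the genes looked at were named for a small adjusted p in the fit without low replicate 1. That choice favours genes whose other low libraries lie close together, so the 31 and the 20 cannot be set against that rate. Genes of 1 library also move together, so these groups are not separate events.

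In genes of the antenna, photosystems and their partners, low replicate 1 was the low extreme of its group. Its scaled TPM was 6955 for LHB1B2, 4654 for LHCB2.1, 3707 for LHCB2.2, 2581 for LHCB4.2, 2798 for LHCB6 and 3064 for LHCA2. For subunits it was 3779 for PSAE1, 978 for PSAE2, 3504 for PSAL, 911 for PSAH1, 2329 for PSAD1, 9341 for PSBR and 2763 for PETE2. It was also lowest for CHLM (316), GUN4 (524), SUC2 (110), AT1G21500 (226), AT1G09253 (31.2) and the identical pair ATCG00950 and ATCG01180 (164 each). The part of this library in the calls is given by the fits without it.

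Low replicate 4 was the high extreme of the jasmonate genes OPR3 (718) and JAZ7 (11.1), and low replicate 2 that of AGP5 (10.9). At moderate humidity the extremes were replicate 1 for RBCS1A (24065), replicate 3 for AT1G72800 (13.1), replicate 4 for AGP9 (23.9) and replicate 4 for AT4G07275 (21.4). In 4 non-coding genes 1 moderate library was above 0 and the other 3 were listed at 0, with 0.404 for AT3G04685, 0.602 for AT1G08543, 1.42 for AT4G39838 and 0.895 for AT1G07567.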

How the results depend on the processing

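With all libraries, the 140 higher and 8 lower genes became 77 and 40 with TPM as deposited, 56 and 2 with no filter on low values, and 17 and 2 with the low and moderate libraries only. The higher count was 84 with no variance trend and 76 after removal of the length and GC trend. Leaving out 1 library gave 3 to 623 higher and 0 to 99 lower genes. Without low replicate 1, the 623 and 99 became 388 and 5217 with TPM as deposited, 366 and 28 with the low and moderate libraries only, and 236 and 50 after removal of the length and GC trend. The lower count was 61 with no filter, and leaving out a further library gave 290 to 694 higher and 22 to 185 lower genes. Other scalings, pseudocounts and filters kept each count within 1.5 times. Replicate numbers did not pair the samples (correlations of deviations -0.32, -0.21, 0.10 and -0.06). With a replicate block there were 9 higher and 1 lower genes, and 529 and 76 without low replicate 1. Under the block the antenna, photosystem I and photosystem II gave 1, 0 and 0 calls, and 15, 10 and 11 without low replicate 1. Of the 52 named genes called with all libraries, 44 lost the call with the low and moderate libraries only, 47 with the block, 30 with no filter, 18 after removal of the length and GC trend, 16 with no variance trend, 9 with TPM as deposited, 47 to 50 without low replicate 2, 3 or 4, and 34 to 46 without 1 moderate library. Of the 103 called without low replicate 1, 31 lost it with the low and moderate libraries only, 34 after removal of the length and GC trend, 18 with the block, 12 with TPM as deposited, and 9 to 35 when a further library was left out. None of these called genes turned its sign under the settings run. Signs turned in genes that did not pass. With TPM as deposited, LHCB5 had -0.12 (-0.13 without low replicate 1), PSBS -0.02, ABA2 -0.19 (-0.18), ABA3 -0.14 and OPR3 -0.01. Upper quartile scaling gave -0.02 for ABA2 and -0.01 for ABA3, and a pseudocount of 0.1 gave -0.00 for ABA2. After removal of the length and GC trend, LHCB5 had -0.02, ABA2 -0.09 (-0.05) and AAO3 0.03 (0.04), and without low replicate 1 ABA1 had 0.02 and ABA3 0.04. Leaving out 1 library gave -0.11 to 0.03 for ABA1, -0.06 to 0.07 for ABA2, -0.05 to 0.05 for ABA3, -0.10 to 0.00 for AAO3 and -0.98 to 0.90 for OPR3. Leaving out a further one beside low replicate 1 gave -0.09 to 0.05 for ABA1, -0.03 to 0.58 for CYP707A3 and -0.49 to 2.21 for OPR3. The cause of these changes was not tested. Depth is unknown, so the precision of genes near 1 TPM cannot be stated.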
